A study of Mus musculus with 6 samples.

Results

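The 10 genes described here encode regulators of G protein signalling (RGS): Rgs2, Rgs3, Rgs4, Rgs5, Rgs10, Rgs12, Rgs14, Rgs16, Rgs17 and Rgs19. They were chosen by name with earlier results of these data in view, above all the opposite differences of Rgs2 and Rgs4, so their differences between the treatments are described without a test. The array held 21 probes annotated to 1 of these symbols alone, and all 10 genes had a probe, among 19640 genes named by a single symbol. C3H10T1/2 is an embryonic mouse fibroblast-like line used as a model of mesenchymal progenitors. Cultures grown in medium with serum received DMSO, called vehicle here, or 1 µM dexamethasone, a synthetic glucocorticoid, for 90 minutes. There were 3 biological replicates of each treatment, all of the 1 cell line, and each was hybridised in Cy3 on its own dual-colour array against a common pool in Cy5. By the sample labels the pool combined DMSO-, dexamethasone- and myostatin-treated cells, whereas the series description speaks of vehicle and treated cells.

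A G protein-coupled receptor switches on a G protein by letting its alpha subunit bind GTP, and the signal ends when the alpha subunit hydrolyses that GTP. RGS proteins speed up this hydrolysis, and so shorten signalling through the Gi and Gq classes. The subfamilies differ in size and in added domains. The small R4 proteins, such as RGS2, RGS4, RGS5 and RGS16, consist of little more than the RGS domain. RGS2 is known for its preference for Gq, the class that activates phospholipase C beta, and RGS4 acts on both Gi and Gq. RGS5 is widely used as a marker of pericytes. RGS10, RGS12 and RGS14 form another subfamily, and RGS17 and RGS19 belong to yet another, which acts mainly on the Gi class.

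Rgs2 and Rgs4 are the 2 members on which the results turn, and the sequences just upstream of their start sites are shown so that the pair can be compared base by base. Both lie on chromosome 1. The sequences are the 250 bases before the annotated start of transcription, from RefSeq on build GRCm38.p6, at chr1:144004150-144004399 for Rgs2 and chr1:169747643-169747892 for Rgs4, each on the minus strand and written 5′ to 3′. Capitals mark any match, on either strand, to one of 4 motifs, a match on the other strand showing as the reverse complement. The motifs were AGAACA, the hexamer bound by the glucocorticoid receptor, TGACG, the core of the cAMP response element, CCAAT, the CCAAT box, and TATAAA, the TATA box. No match overlapped another in the sequences printed.
Rgs2: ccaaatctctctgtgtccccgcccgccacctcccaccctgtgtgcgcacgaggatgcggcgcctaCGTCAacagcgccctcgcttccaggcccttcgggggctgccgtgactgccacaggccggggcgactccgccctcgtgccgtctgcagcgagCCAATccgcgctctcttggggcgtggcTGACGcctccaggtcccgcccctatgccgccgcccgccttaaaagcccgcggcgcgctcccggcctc
Rgs4: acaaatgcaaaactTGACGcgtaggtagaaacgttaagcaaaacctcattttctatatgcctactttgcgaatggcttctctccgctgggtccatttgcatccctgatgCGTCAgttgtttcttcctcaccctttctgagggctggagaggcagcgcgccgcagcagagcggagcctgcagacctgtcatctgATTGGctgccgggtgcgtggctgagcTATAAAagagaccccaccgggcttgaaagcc
The sequence upstream of Rgs2 held TGACG in either orientation at 2 places and a CCAAT box. That of Rgs4 also held TGACG at 2 places and a CCAAT box, and had a TATA box starting 31 bases before its start site. Neither held AGAACA in this window, which says only that these letters are not in these 250 bases. Of all 32851 upstream sequences of the same length, 16.1% held AGAACA, 17.8% TGACG, 33.8% CCAAT and 12.4% TATAAA. Of the 10 members, 9 had at least 1 entry, with 13 start sites in all. AGAACA was found at 4 of these 13 start sites, at Rgs3, Rgs12 and Rgs19.

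All values were treated as log2 ratios of a sample to the pool on the same array, a scale inferred from the deposited numbers. A difference is the mean of the 3 dexamethasone arrays minus the mean of the 3 vehicle arrays, or of those with a value. A log2 ratio says how a gene stood relative to its own level in the pool and gives no level that can be compared between genes. The dyes are labelled, but the direction of the ratio is not stated; it was read as sample over pool, which is likely but unsettled, and the opposite reading would swap "higher" and "lower" throughout. The arrays were of unequal quality. From 1.43% to 2.42% of the probes had no value on the vehicle arrays and from 4.41% to 11.2% on the dexamethasone arrays. The array medians ran from -0.12 to 0.57, and across all 27046 genes and unnamed probes with at least 2 values per group the median difference was 0.32. This median shift of 0.32 is a background against which each difference has to be read. It was 0.24 over named genes alone, 0.02 once array medians were set to 0, and -0.03 with quantile normalization. Vehicle 1, vehicle 2 and dexamethasone 1 had medians between -0.12 and -0.10 and 1.86% to 3.79% of values that match a whole-number ratio (integers up to 10) on the log2 scale, equal at the 3 decimals of the file; a value can also match by coincidence. The other 3 arrays had medians between 0.16 and 0.57 and 7.73% to 12.7% of such values, so values within each of these sets of arrays are given as well. With a block for these sets the median difference of all features was 0.10. Of 10 markers of mesenchymal cells 9 were measured, and their median log2 ratio lay between -0.18 and 0.19 on all arrays. For 12 markers of blood, endothelial and epithelial cells it lay between -0.66 and 2.00, being 2.00 and 1.46 on dexamethasone 2 and 3. Only 4 of these 12 had a probe that passed the low-signal rule given below, against 8 of the 9 mesenchymal markers. A ratio to a pool of the same line cannot show whether a marker is expressed, and the part of these markers in the results was not tested.

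Rgs2, which shortens Gq signalling, stood far below the pool in vehicle and above it after dexamethasone. Its log2 ratios were -1.43, -1.69 and -1.72 in the vehicle cultures and 1.05, 1.11 and 1.12 in those given dexamethasone. Every dexamethasone value lay above every vehicle value, and the gap between the groups was many times the spread within either. The means were -1.61 ± 0.16 and 1.09 ± 0.04 (SD, n = 3 each), a difference of 2.71 ± 0.18 (moderated SE), which is 6.53-fold higher with dexamethasone. The probes mMC013611 and mMR029558 both measured Rgs2. The first read -1.28, -1.70 and -1.53 in vehicle and 0.96, 1.04 and 0.92 with dexamethasone. The second read -1.57, -1.68 and -1.91 in vehicle and 1.14, 1.18 and 1.32 with dexamethasone. The 2 probes were at most 0.40 apart on any array, and their differences were 2.48 and 2.94. Within the first set of arrays the Rgs2 difference was 2.61 and within the second 2.84, so it was of like size in both.

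Rgs4, a regulator of both Gi and Gq signalling, went the other way. Its single probe read 0.37, 0.46 and 0.48 in vehicle and -1.74, -1.56 and -1.86 with dexamethasone. The groups did not overlap, and both were narrow beside the distance between them. The means were 0.44 ± 0.06 and -1.72 ± 0.15 (SD, n = 3 each), a difference of -2.16 ± 0.18 (moderated SE), 4.45-fold lower with dexamethasone. Within the first set of arrays it was -2.15 and within the second -2.19. Ranked by the size of the difference alone, Rgs2 was at place 890 from the top and Rgs4 at place 288 from the bottom of the 27046. Differences of this size were therefore not rare on these arrays, though the ranking counts every feature whatever its SE. Of the 38467 probes, 15355 failed the low-signal rule given below.

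The gap between Rgs2 and Rgs4 on the same array is free of any shift that adds the same amount to every probe of an array. The Rgs2 log2 ratio minus the Rgs4 log2 ratio was -1.80, -2.15 and -2.20 in vehicle and 2.78, 2.68 and 2.98 with dexamethasone. The sign of the gap thus turned between the treatments on all arrays. Its means were -2.05 ± 0.22 and 2.81 ± 0.16 (SD, n = 3 each), a change of 4.86, or 29.1-fold in the ratio of the 2 transcripts. It was 4.64 with one Rgs2 probe alone and 5.09 with the other.

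**Figure D1:**
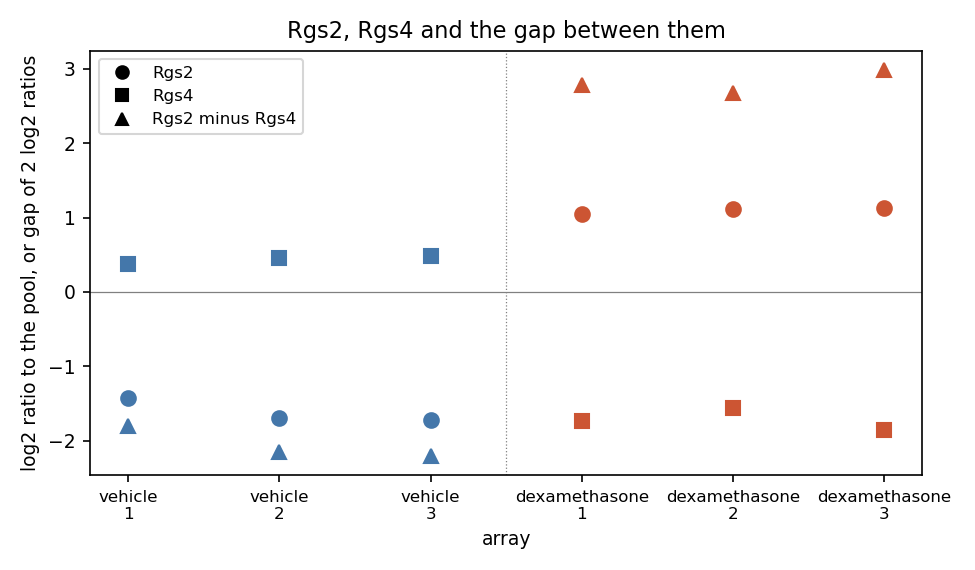
Log2 ratios to the pool of Rgs2 (circles) and Rgs4 (squares) and the Rgs2 minus Rgs4 gap (triangles) on each array, with vehicle in blue and dexamethasone in red. Rgs2 lay between -1.72 and -1.43 in vehicle and between 1.05 and 1.12 with dexamethasone, while Rgs4 lay above 0 in vehicle and between -1.86 and -1.56 with dexamethasone.

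Each of the 2 genes by itself gives the share of dexamethasone RNA that the pool would have to hold under either reading of the ratio. If the rest of the pool had the level of vehicle cells, the vehicle ratio of Rgs2, 0.327 on the linear scale, and its dexamethasone ratio, 2.14, required a share of 0.372. For Rgs4, with ratios of 1.35 and 0.304, the share was 0.336. Read with the sign turned, the shares were 0.795 for Rgs2 and 0.102 for Rgs4. After median centring the shares were 0.471 and 0.331 as deposited, and 0.825 and 0.0824 with the sign turned. The calculation has no error estimate, treats the myostatin-treated cells as like vehicle for both genes, which was not tested, and rests on 2 genes chosen from this contrast, so nothing about the direction is drawn from it.

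**Figure D2:**
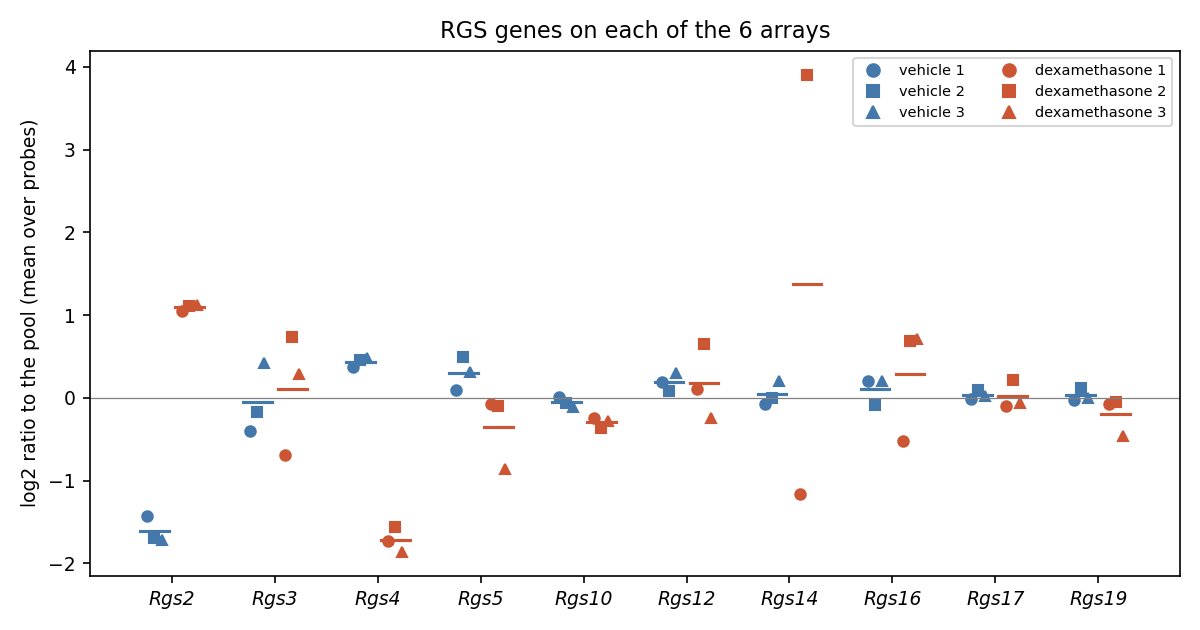
Log2 ratio to the pool, averaged over the probes of each gene, for the 10 RGS genes on the 3 vehicle (blue) and 3 dexamethasone arrays (red); marker shapes give the replicate and bars the group means. Rgs2 and Rgs4 were the only members whose group means were more than 2 log2 units apart, and Rgs14 had the widest spread, with 3.91 on dexamethasone 2.

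The other members differed less, or varied more between arrays. Over the 10 genes the differences were above 0 for 4 and below 0 for 6, with a median of -0.02. All 3 dexamethasone values lay above all vehicle values for 1 member, Rgs2, and this held for 10.4% of all features. They lay below for 4 members, Rgs4, Rgs5, Rgs10 and Rgs19, and for 6.42% of all features; since the members were chosen from this contrast, nothing is read from these counts. Of the 21 probes, 14 passed a rule that stands in for signal, which was not measured here. This low-signal rule asks for a value on every array, no match to such a whole-number ratio and no value beyond 10 in size, and 9 of the 10 genes had such a probe, the exception being Rgs14. With low-signal probes left out, the median difference over all features was 0.17. For 8 of the 10 genes the SD was larger with dexamethasone than in vehicle, that of Rgs14 resting on 2 dexamethasone values. The share over all features was not counted, so this describes the members only.

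Rgs5 and Rgs16 are the remaining small R4 members here, and both also lie on chromosome 1. Rgs5, the pericyte marker, is the direct neighbour of Rgs4 among protein-coding genes of the RefSeq annotation of GRCm38.p6. Rgs5 read 0.09, 0.49 and 0.31 in vehicle and -0.08, -0.10 and -0.86 with dexamethasone. The groups did not overlap, but dexamethasone 3 lay far below the other dexamethasone arrays, and the gap between the nearest values was small. Its difference was -0.64 ± 0.30 (moderated SE), 1.56-fold lower; it was -0.37 within the first set of arrays, -0.79 within the second, -0.39 without dexamethasone 3, -0.95 after median centring and -1.38 after quantile normalization. The difference of Rgs4 was the larger of the neighbours: the Rgs4 minus Rgs5 gap was 0.28, -0.04 and 0.17 in vehicle and -1.66, -1.46 and -0.996 with dexamethasone, a change of -1.51. Of 7 further pericyte markers all were measured and 0 had an unadjusted limma p under 0.05. Their median difference was 0.30, against 0.32 for all features and 0.24 for named genes alone.

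Rgs16, which acts on Gi and Gq, read 0.20, -0.09 and 0.20 in vehicle and -0.52, 0.69 and 0.71 with dexamethasone. Dexamethasone 1 lay below and the other dexamethasone arrays above all vehicle values. The difference of 0.19 ± 0.40 (moderated SE) was smaller than its error, was -0.57 within the first set of arrays and 0.50 within the second, and changed sign to -0.12 after median centring and -0.43 after quantile normalization. It was 0.60 without dexamethasone 1, -0.01 without dexamethasone 2 and -0.02 without dexamethasone 3. Rgs8, the direct neighbour of Rgs16 and no member, read 0.36, -0.65 and -0.54 in vehicle and 1.37, 0.81 and 0.79 with dexamethasone. Its difference was 1.26 ± 0.37 (moderated SE), with a limma adjusted p of 0.732. These Rgs8 values average 3 probes, of which only 1 passed the low-signal rule.

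Rgs3, whose longer proteins carry domains beside the RGS domain, had 9 probes, and they disagreed. Their differences ran from -1.52 to 1.38, with 6 above and 3 below 0; the lowest, at mMR029560, sets 1 dexamethasone array against 3 vehicle arrays, whose values were -1.28, -1.26 and 2.20. The gene's mean difference was 0.16 ± 0.46 (moderated SE). The gene values were -0.41, -0.17 and 0.42 in vehicle and -0.69, 0.74 and 0.29 with dexamethasone, so the groups overlapped. Only 3 of the 9 probes were free of missing values, whole-number ratios and extremes. Of these 3, mMA035501 read 0.33, 0.14 and 0.12 in vehicle and -0.57, -0.93 and -0.89 with dexamethasone, a difference of -0.99 with no overlap. The probe mMA031562 read 0.22, 0.27 and 0.06 in vehicle and -0.07, 1.46 and 0.85 with dexamethasone, a difference of 0.56, and mMC020090 had a difference of 0.20; both overlapped. The probe mMA035501 is annotated to a RefSeq transcript record of Rgs3 that is not listed for mMA031562, and mMC020090 is annotated to both records. A further probe of the record of mMA035501, mMA035477, had a difference of 0.28 and held a value equal to a whole-number ratio. The average over the probes was -0.15 after median centring, -0.32 after quantile normalization, 0.56 without dexamethasone 1, -0.15 without dexamethasone 2 and 0.07 without dexamethasone 3.

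**Figure D3:**
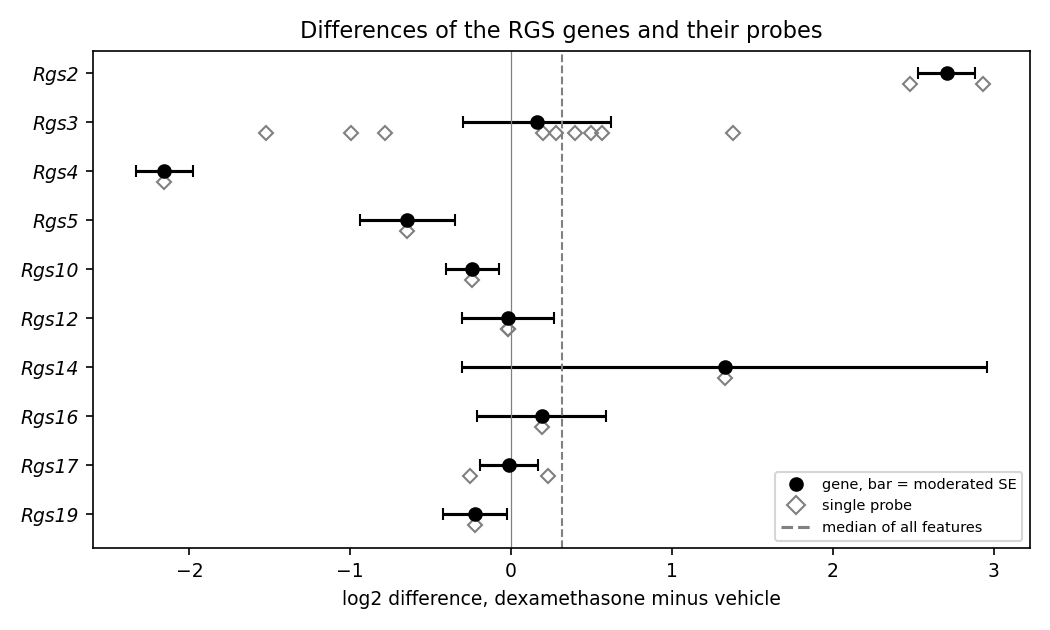
Log2 difference between dexamethasone and vehicle for each gene (filled circles, bars show the moderated SE) and for each of its probes (open diamonds); the dashed line is the median of all features, 0.32. The 9 Rgs3 probes spread from -1.52, measured on only 1 dexamethasone array, to 1.38, while the 2 Rgs2 probes lay at 2.48 and 2.94.

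Rgs10, Rgs12 and Rgs14 belong to a separate subfamily; RGS12 and RGS14 carry a further motif that binds inactive Gi alpha subunits. Rgs10 read 0.01, -0.06 and -0.11 in vehicle and -0.24, -0.36 and -0.28 with dexamethasone. Its groups did not overlap and their spread was small, with SDs of 0.06 in both, yet the difference of -0.24 ± 0.16 (moderated SE) was only 1.18-fold. It was -0.22 within the first set of arrays and -0.21 within the second, -0.55 after median centring and -0.51 after quantile normalization. Rgs12 had a difference of -0.02 ± 0.28 (moderated SE), with -0.02 at each of its 2 probes; it read 0.19, 0.08 and 0.31 in vehicle and 0.11, 0.65 and -0.24 with dexamethasone, the latter on both sides of vehicle. It was -0.26 without dexamethasone 2, 0.19 without dexamethasone 3, -0.33 after median centring and -0.50 after quantile normalization. Rgs14 read -0.07, -0.01 and 0.21 in vehicle and -1.17 and 3.91 on dexamethasone 1 and 2, with no value on dexamethasone 3. Its difference of 1.33 ± 1.63 (moderated SE, 2 dexamethasone arrays) was smaller than its error and set by dexamethasone 2 alone.

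Rgs17 and Rgs19 act mainly on the Gi class. Rgs17 read -0.01, 0.09 and 0.02 in vehicle and -0.09, 0.22 and -0.06 with dexamethasone, so the groups overlapped. The difference was -0.01 ± 0.18 (moderated SE), and -0.32 after median centring and -0.36 after quantile normalization. Its 2 probes had differences of -0.26 and 0.23, the first without overlap between the groups. Rgs19 read -0.02, 0.13 and -0.01 in vehicle and -0.07, -0.05 and -0.46 with dexamethasone; the groups did not overlap, though dexamethasone 1 and 2 lay within 0.1 of the lowest vehicle array. The difference was -0.22 ± 0.20 (moderated SE), 1.17-fold. It was -0.09 without dexamethasone 3, -0.53 after median centring and -0.56 after quantile normalization. Rgs10, Rgs19 and Rgs5 kept a difference below 0 under every setting tried, while Rgs3, Rgs12, Rgs14, Rgs16 and Rgs17 changed sign under at least 1.

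**Figure D4:**
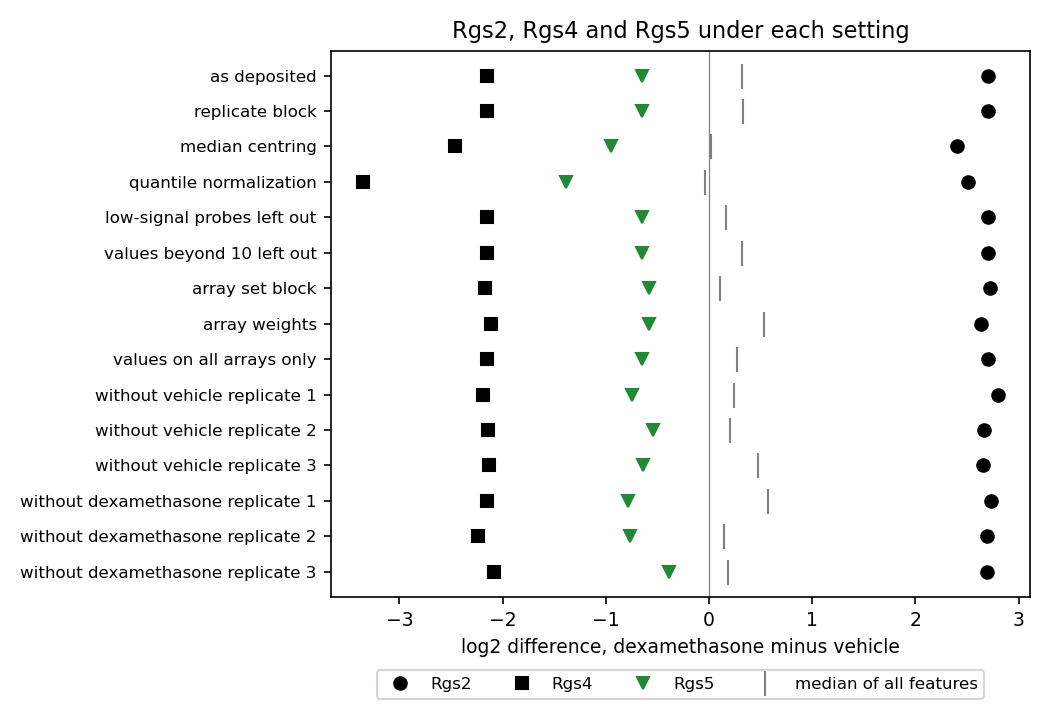
Log2 differences of Rgs2, Rgs4 and Rgs5 and the median of all features under each processing setting of the fit and without each array in turn; single probes and values within a set of arrays are not drawn. In the rows drawn, Rgs2 lay between 2.40 and 2.80, Rgs4 between -3.35 and -2.09, and the median of all features moved between -0.03 and 0.57.

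The genes whose array pattern was most like that of Rgs2 and of Rgs4 were found over the 6 arrays, by the root mean square difference of log2 ratios after each gene was centred on its own mean, among 16509 other named genes with values on all arrays. Nearest to Rgs2 were Tcim, Adm, which encodes the vasodilator peptide adrenomedullin, the transcription factor gene Nfil3, Gclc, which encodes the catalytic subunit of glutamate-cysteine ligase, and Spsb1, which encodes a SOCS-box protein. Their root mean square differences from Rgs2 ran from 0.155 for Tcim to 0.222 for Spsb1. Tcim read -1.77, -1.60 and -1.71 in vehicle and 1.18, 1.13 and 1.12 with dexamethasone. Nearest to Rgs4 were the chemokine genes Ccl7 and Ccl2, the hyaluronan synthase gene Has2, the aryl hydrocarbon receptor gene Ahr and Tnfrsf11b, which encodes osteoprotegerin. Ccl7 was at 0.152, with 0.11, 0.13 and 0.39 in vehicle and -2.29, -1.96 and -2.03 with dexamethasone, and Tnfrsf11b at 0.326. The fifth neighbour of Rgs4 was thus further away than the fifth neighbour of Rgs2. Nfil3 and Tnfrsf11b had no probe that passed the low-signal rule.

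The surrounding pathway was described by 9 lists of G protein signalling genes that leave out the 10 members. These lists were chosen with earlier results of these data known, so their shares are no independent evidence about the pathway. Of 157 listed genes 136 were measured. In limma 0 were higher and 0 lower at 0.05 after Benjamini-Hochberg adjustment, as for all 27046 features (0%). At an unadjusted p under 0.05 there were 16, 10 higher and 6 lower, which is 11.8% against 5.43% of all features (4.43% higher and 0.995% lower). The split of 10 higher and 6 lower became 6 and 7 after median centring and 5 and 7 after quantile normalization. Both directions together made 9.56% against 3.94% of all features with centred medians, and 8.82% against 4.09% with quantile normalization. As deposited, the 136 genes had a median difference of 0.32, with 90 above 0 and 46 below. The median was also 0.32 over all features, which include unnamed probes, and 0.24 over named genes alone. The count of 16 was 9 without vehicle replicate 1 (6.82%, against 2.99% of all features). It was 7 without vehicle replicate 2 (5.26% against 2.63%) and 47 without dexamethasone replicate 1 (36.4% against 29.2%).

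Other RGS genes and their partners had a list median of 0.81, and 0 passed after adjustment in limma. At an unadjusted p under 0.05 they gave 2 of 10, both higher, against 5.43% of all features. These 2 were Rgs8 and Rgs9bp, the membrane anchor of RGS9. Rgs9bp read 0.04, -0.01 and -0.22 in vehicle and 0.94, 1.02 and 0.78 with dexamethasone, a difference of 0.98 ± 0.18 (moderated SE, limma adjusted p = 0.407). Rgs20, a relative of Rgs17 and Rgs19, had overlapping groups and a difference of 1.03 ± 0.81 (moderated SE). Only 6 of the 10 had a probe that passed the low-signal rule. Of the 9 proteins that carry an RGS-like domain among other domains, such as axins and sorting nexins, 0 had an unadjusted p under 0.05 in limma and 0 passed after adjustment; the list median was -0.10. The smallest p there were those of Snx25 (-0.50 ± 0.23, moderated SE) and Snx14 (-0.37 ± 0.22, moderated SE).

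The substrates of the RGS proteins, the G alpha subunits, had a median of 0.22, and 0 passed after adjustment in limma. At an unadjusted p under 0.05 they gave 1 of 15, against 5.43% of all features. That gene was Gna14, of the Gq class, at 0.85 and -1.07 on 2 vehicle arrays and 4.17, 3.91 and 2.81 with dexamethasone; its single probe failed the low-signal rule, and its limma adjusted p was 0.604. Gnaq, the Gq subunit itself, had a difference of 0.07 ± 0.16 (moderated SE) over 5 probes, with overlapping groups. Among the Gi subunits Gnai2 differed by 0.28 ± 0.22 (moderated SE) and Gnai3 by -0.40 ± 0.20 (moderated SE). Gnas, the subunit that stimulates adenylyl cyclase, varied widely, with a difference of 1.03 ± 0.92 (moderated SE). Beta and gamma subunits gave 2 of 15 at an unadjusted p under 0.05, 1 in each direction. Gnb5, the beta subunit that partners the RGS6, RGS7, RGS9 and RGS11 proteins, read 1.22, 1.53 and 1.54 in vehicle and 0.50, -0.31 and -0.09 with dexamethasone. Its groups did not overlap, and the difference was -1.40 ± 0.28 (moderated SE), 2.63-fold lower, with a limma adjusted p of 0.440. Gng13 was the higher one, at 0.91 ± 0.31 (moderated SE), on a probe that failed the low-signal rule. Gnb1 differed by -0.25 ± 0.21 (moderated SE).

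**Figure D5:**
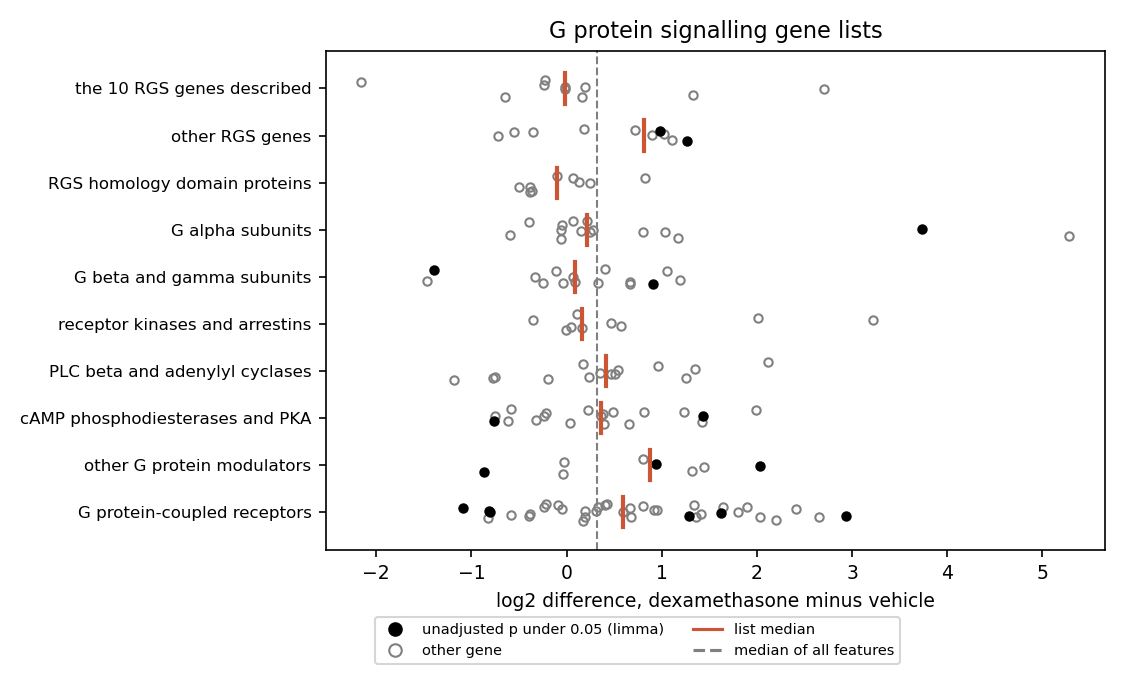
Log2 difference between dexamethasone and vehicle for the 10 RGS genes and for the measured genes of 9 G protein signalling lists; each circle is a gene, filled where the unadjusted limma p was under 0.05 (not marked for the 10 RGS genes), red bars are list medians and the dashed line is the median of all features, 0.32. None of the 136 listed genes passed after adjustment.

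Receptors upstream of these proteins had a list median of 0.60, and 0 passed after adjustment in limma. At an unadjusted p under 0.05 they gave 6 of 37, 3 higher and 3 lower, against 5.43% of all features. The 2 with the smallest p were both lower. S1pr1, a Gi-coupled receptor for sphingosine 1-phosphate, read 0.62, 0.54 and 0.67 in vehicle and -0.19, -0.14 and -0.29 with dexamethasone. The difference was -0.82 ± 0.17 (moderated SE), 1.76-fold lower, with a limma adjusted p of 0.446. Ptgfr, the Gq-coupled receptor for prostaglandin F, read 0.50, 0.25 and 0.38 in vehicle and -0.44, -0.46 and -1.23 with dexamethasone, a difference of -1.08 ± 0.28 (moderated SE, limma adjusted p = 0.693). Receptor kinases and arrestins, which silence active receptors, gave 0 of 9 at either threshold in limma, with a median of 0.17. Grk5 differed by 0.05 ± 0.16, Arrb2 by -0.35 ± 0.36, Grk3 by 3.22 ± 1.37 and Sag by 2.01 ± 1.72 (moderated SE). The single probes of Arrb2 and Grk3 failed the low-signal rule.

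Effectors and other modulators completed the lists. Of all features, 5.43% had an unadjusted limma p under 0.05, 4.43% higher and 0.995% lower. Phospholipase C beta and adenylyl cyclase genes gave 0 of 14 at either threshold in limma, with a median of 0.41; Adcy7 had the smallest p, at -0.76 ± 0.38 (moderated SE), followed by Adcy4 at 2.12 ± 1.11 (moderated SE). Phosphodiesterases that break down cAMP and subunits of protein kinase A gave 2 of 19 at an unadjusted p under 0.05 and 0 adjusted: Prkar1b, measured on 2 vehicle arrays and with no probe that passed the low-signal rule, was at 1.43 ± 0.25 and Pde8a at -0.76 ± 0.25 (moderated SE). Other modulators of G proteins gave 3 of 8 at an unadjusted p under 0.05, 2 higher and 1 lower, and 0 adjusted. Rasd1, a Ras-like protein known as dexamethasone-induced, read -1.12, -1.28 and -0.93 in vehicle and 1.13, 1.34 and 0.30 with dexamethasone. Its difference was 2.03 ± 0.34 (moderated SE), 4.10-fold higher, with no overlap and a limma adjusted p of 0.332. Gpsm2, which binds inactive Gi alpha subunits, was at -0.87 ± 0.19 (moderated SE, limma adjusted p = 0.474), on a probe that failed the low-signal rule.

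All dexamethasone values lay above all vehicle values for 10.4% of all features. Among 6 textbook glucocorticoid targets used to judge the direction, this held for Fkbp5, Tsc22d3, Per1, Sgk1 and Dusp1 and not for Zbtb16. Their differences ran from -0.40 for Zbtb16 to 4.26 for Dusp1, and the smallest limma adjusted p was 0.0556. Since these genes bear on the choice of direction, their sign is no independent result. The single probe of Zbtb16 failed the low-signal rule. It read -2.04 and 0.94 on dexamethasone 1 and 2 and had no value on dexamethasone 3.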

How the data were processed

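Transcripts of 3 vehicle and 3 dexamethasone cultures were measured on 6 dual-colour arrays. The unit is not stated; the deposited columns were treated as log2 ratios of sample and pool since they are signed and many entries match whole-number ratios on that scale. On 4 arrays the deposited columns hold values beyond 100 in size, which no such ratio gives, so the unit of those 4 deposited columns is a score that is log2 for most probes at best; they were nevertheless analysed on the log2 scale. Limma was used per the submitters' processing notes; for background correction, normalization and genome build the sources used here give nothing. Sample titles gave the groups and replicate numbers.

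The supplied platform annotation named 29456 of 38467 probes by 1 symbol and 760 by several; 8251 were unlisted and kept unnamed. Probes with 1 symbol were averaged per gene, and 2 values per group were required. Limma 3.58.1 in R 4.3.3 fitted dexamethasone against vehicle (lmFit, eBayes), two-sided, without a block, with Benjamini-Hochberg adjustment at 0.05 over all 27046 features, and was tested on simulated data. The SE is the moderated one, and the SD is over the arrays of a group. With 3 arrays a group, their number limits the precision. Members and lists were chosen with earlier results of these data known. Genes named beside the members were the 2 with the smallest p in each pathway list, a few named in advance, the 5 nearest in pattern to Rgs2 and to Rgs4, and the neighbour of Rgs16.

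The replicate numbers were not taken to pair the arrays: deviations from the group means of same-numbered arrays had Spearman correlations of 0.29, -0.16 and 0.36 across genes. For differently numbered arrays these correlations ran from -0.47 (vehicle 3 with dexamethasone 1) to 0.33 (vehicle 2 with dexamethasone 1). Other settings were a replicate block, median centring, quantile normalization, leaving out low-signal probes, extremes or incompletely measured features, a block for the array sets, values within each set, array weights, single probes and leaving out each array.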

Additional observations from a re-analysis of the deposited data

How the results depend on the processing

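Rgs2 stayed above 0 and Rgs4 below 0 under all settings tried. After median centring their differences were 2.40 and -2.46, and after quantile normalization 2.51 and -3.35, with a change in the Rgs2 minus Rgs4 gap of 5.87. Within vehicle 3, dexamethasone 2 and dexamethasone 3 the Rgs2 difference was 2.84. By single Rgs2 probe it was 2.48 and 2.94, and the change in the gap 4.64 and 5.09. Without 1 array the Rgs2 difference ran from 2.65 to 2.80, the Rgs4 difference from -2.23 to -2.09 and the change in the gap from 4.78 to 4.99. The cause of these movements was not tested.

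With the replicate block, limma again called 0 of 27046 features after adjustment, and 1329 instead of 1468 had an unadjusted p under 0.05. The fit without a block also called 0, so the block had no call to remove. The number of features called was 29 (26 higher, 3 lower) with low-signal probes left out and 5 (all higher) among features with values on all arrays, where 17152 and 22880 were tested; none of these was a gene of the G protein pathway lists. The number of pathway genes at an unadjusted p under 0.05 ran from 7 to 47 without 1 array, and that of all features from 695 to 6947. Of the features at an unadjusted p under 0.05, 1199 of 1468 (81.7%) were higher as deposited, against 787 of 1065 (73.9%) with centred medians and 681 of 1105 (61.6%) with quantile normalization.

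Rgs14 had no value with low-signal probes left out or when all arrays were required. Spot intensities were not used here, so low signal was judged only from missing values, whole-number ratios and extremes. The median shift between the treatments and the 3 arrays per group limit what can be said of the members with small differences.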
